A study of Mus musculus with 48 samples.

Results

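The 34 genes described here are needed for DNA replication or for mitosis. They are 11 genes of the G1/S transition and S phase and 23 genes of G2 and mitosis, taken by symbol from a list of 34 cell cycle genes, and all 34 were found among the 50764 rows of each count table. All 34 also passed the filter on low counts in every line. Poly-A RNA libraries had been made of primary cells from 4 mouse lines, 12 per line and 48 in all. All mice were heterozygous for a Cre-dependent BERKY3 allele, a genetically encoded biosensor of an active G protein alpha subunit: Gas*-BERKY3 (primary astrocytes from brain), Gai*-BERKY3, Gaq*-BERKY3 or Ga13*-BERKY3 (primary lung fibroblasts). They are called the Gas, Gai, Gaq and Ga13 lines below.

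Every culture received polybrene at 6 µg/ml and an adeno-associated virus about 18 h after seeding, either AAV2/1-CMV-empty or AAV2/1-CMV-Cre. In the latter the CMV promoter, which is active in many cell types, drives Cre. Astrocytes were seeded at more cells per well than fibroblasts and received the virus less diluted. Afterwards the cells had 90 min in fresh medium, alone or with an agonist. Astrocytes were given 1 µM isoproterenol, an agonist of beta-adrenergic receptors, and fibroblasts 100 µM TRAP-6, a peptide agonist of the thrombin receptor PAR1. Each line therefore had 4 groups of 3 libraries: medium or agonist, with the empty or the Cre virus. Cells without the biosensor allele were not analysed here, so Cre itself and the biosensor it switches on cannot be told apart. The labels number the replicates without naming animals or cultures, so p-values measure the spread between these libraries, which may be technical.

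Total counts ranged from 15.6 M to 42.6 M per library (M, units of 1000000), and no pair of libraries agreed within sampling noise. The biosensor row rose from group means of 0.0401 to 0.725 counts per 1000000 counts of the library (CPM) with the empty virus to 20.2 to 133 CPM with Cre, as the virus labels say for all 16 groups. The summed level of 13 astrocyte markers was 10614 to 11944 CPM in the Gas libraries and 237 to 499 CPM in the fibroblast lines. Fibroblast markers summed to 35148 to 55789 CPM in the 3 fibroblast lines and 1761 to 2244 CPM in the Gas line. Microglia and macrophage markers were present in every library, at 469 to 547 CPM in Gas, 1275 to 1612 CPM in Gai, 465 to 669 CPM in Gaq and 254 to 348 CPM in Ga13. Marker genes of several cell types were thus present, and in bulk RNA fewer cells of a type, or fewer cells in a phase of the cycle, cannot be told apart from less RNA per cell. In the Ga13 and Gaq lines the empty virus libraries of replicate 3 stood apart in the G2/M genes, as described beside the comparison of the lines. In Gai the replicate 1 libraries differed from replicates 2 and 3 by a chi-square of 9.71 to 19.3 per degree of freedom over all genes, and replicates 2 and 3 from each other by 2.99 to 3.44.

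A cell copies its DNA in S phase and divides in M phase, and each step needs its own set of proteins. E2F transcription factors switch on genes of the G1/S transition and of replication. Most genes of G2 and mitosis are held down earlier in the cycle by protein complexes at their promoters and peak just before division. RNA of these genes is low in resting cells, so in a mixed culture their level follows the share of cells in cycle as well as regulation within a cell.

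The members were grouped by role. Of the S genes, Mcm2, Mcm3, Mcm4, Mcm5 and Mcm6 encode 5 subunits of the helicase that is loaded onto replication origins and opens the DNA. Pcna encodes the sliding clamp of DNA polymerases, and Rrm2 and Tyms encode enzymes that supply deoxynucleotides. Ccne1 and Ccne2 encode the E cyclins that drive entry into S phase with Cdk2, and E2f1 an E2F activator. Of the G2/M genes, Cdk1, Ccna2, Ccnb1, Ccnb2 and Cdc25c encode the mitotic kinase, its cyclins and a phosphatase that activates it. Aurka, Aurkb and Plk1 encode mitotic kinases, and Bub1 and Bub1b encode spindle checkpoint proteins. Cdc20 and Ube2c encode an activator and a ubiquitin-conjugating enzyme of the anaphase-promoting complex. Cenpa is the centromeric histone H3 variant, Cenpe a kinetochore motor and Cenpf a kinetochore protein. Kif11, Kif20a and Kif23 are kinesins of the spindle, Nusap1 and Tpx2 bind its microtubules, and Birc5 (survivin) belongs to the chromosomal passenger complex. Mki67 (Ki-67) coats mitotic chromosomes, and Top2a untangles DNA.

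Promoter sequences are shown first, because S and G2/M genes carry different known elements there. RefSeq (GRCm38.p6) promoter windows of 300 bases, from 250 bases before to 50 after the start, matched 27 of the 34 members. Tpx2, Aurkb, Ccna2, Cdc25c, Mcm4, Ccne2 and Kif20a had no entry. The windows are of an earlier build than the counts (GRCm39), so their coordinates belong to GRCm38 only. Of the 7 windows printed, 5 belong to G2/M genes that were lower under isoproterenol. Plk1 had the smallest p for Cre in the Gai line, and Mcm6 stands for the S genes. Capitals mark TTTGAA (the CHR element of G2/M promoters) and CCAAT (the NF-Y box) on either strand in the G2/M genes, and E2F-type words in Mcm6. Each window is written 5′ to 3′ on the gene's strand.
Cenpe, chr3:135212313-135212612, plus strand: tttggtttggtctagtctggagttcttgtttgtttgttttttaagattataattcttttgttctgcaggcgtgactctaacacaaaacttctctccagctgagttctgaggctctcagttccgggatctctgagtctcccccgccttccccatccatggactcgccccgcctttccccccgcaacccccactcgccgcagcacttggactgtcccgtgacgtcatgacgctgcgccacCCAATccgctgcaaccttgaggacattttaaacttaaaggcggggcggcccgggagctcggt
Cenpf, chr1:189688037-189688336, minus strand: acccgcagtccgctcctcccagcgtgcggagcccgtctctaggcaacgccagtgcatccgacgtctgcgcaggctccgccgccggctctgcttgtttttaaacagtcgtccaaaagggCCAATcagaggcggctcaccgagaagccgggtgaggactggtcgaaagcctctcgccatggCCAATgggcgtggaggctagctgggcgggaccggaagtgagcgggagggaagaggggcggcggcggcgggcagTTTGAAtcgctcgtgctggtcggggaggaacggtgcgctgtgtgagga
Aurka, chr2:172370521-172370820, minus strand: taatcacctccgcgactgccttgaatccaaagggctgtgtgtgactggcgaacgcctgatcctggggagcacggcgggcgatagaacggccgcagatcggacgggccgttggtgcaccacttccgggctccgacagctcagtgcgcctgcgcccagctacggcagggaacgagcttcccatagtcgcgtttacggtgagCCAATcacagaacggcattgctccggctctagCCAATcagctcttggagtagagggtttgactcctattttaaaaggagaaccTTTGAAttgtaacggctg
Cdc20, chr4:118437294-118437593, minus strand: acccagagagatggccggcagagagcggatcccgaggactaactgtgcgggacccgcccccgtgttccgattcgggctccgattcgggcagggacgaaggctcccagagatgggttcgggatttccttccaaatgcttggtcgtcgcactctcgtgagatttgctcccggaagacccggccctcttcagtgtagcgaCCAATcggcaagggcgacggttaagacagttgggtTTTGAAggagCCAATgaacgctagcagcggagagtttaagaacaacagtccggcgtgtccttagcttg
Kif23, chr9:61946750-61947049, minus strand: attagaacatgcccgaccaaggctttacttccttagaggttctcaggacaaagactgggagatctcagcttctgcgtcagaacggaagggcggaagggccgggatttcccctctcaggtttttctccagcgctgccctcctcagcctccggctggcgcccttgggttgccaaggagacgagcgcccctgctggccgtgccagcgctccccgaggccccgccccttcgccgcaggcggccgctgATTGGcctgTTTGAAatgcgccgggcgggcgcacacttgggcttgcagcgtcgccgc
Plk1, chr7:122159185-122159484, plus strand: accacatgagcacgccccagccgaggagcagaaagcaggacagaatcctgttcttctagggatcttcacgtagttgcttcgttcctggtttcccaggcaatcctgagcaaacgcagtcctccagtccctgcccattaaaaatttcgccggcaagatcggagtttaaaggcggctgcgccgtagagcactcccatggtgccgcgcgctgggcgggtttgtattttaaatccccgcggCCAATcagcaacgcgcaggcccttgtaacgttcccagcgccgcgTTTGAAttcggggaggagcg
Mcm6, chr1:128359656-128359955, minus strand: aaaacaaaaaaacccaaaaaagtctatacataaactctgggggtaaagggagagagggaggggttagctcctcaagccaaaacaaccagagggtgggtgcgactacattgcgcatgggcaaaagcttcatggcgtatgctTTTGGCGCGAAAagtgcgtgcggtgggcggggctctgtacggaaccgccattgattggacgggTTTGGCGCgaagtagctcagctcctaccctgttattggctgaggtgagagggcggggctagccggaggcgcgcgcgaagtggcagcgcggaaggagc

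Searched on both strands, TTTGAA was in the windows of 13 of 18 G2/M members (72.2%) and 1 of 9 S members (11.1%), against 17.9% of all 32851 promoter windows. CCAAT was in 16 of 18 G2/M members (88.9%) and 6 of 9 S members (66.7%), against 37.4% of all windows. The E2F-type words TTTCCCGC, TTTGGCGC and TTTCGCGC were in 3 of 9 S members (33.3%; Mcm3, Mcm5 and Mcm6) and in 1 G2/M member (5.56%; Cdk1), against 1.84% of all windows. No match of 1 motif overlapped a match of another, while in Mcm5 and in Mcm6 2 matches of the E2F words overlapped each other. In the Cdc20 window, CCAAT begins 53 and 8 bases before the start with TTTGAA between them, 18 bases before it. A match is a description of letters, and no factor's binding was measured in these cells.

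Isoproterenol lowered 11 of the 34 members in astrocytes and raised none, 10 of them among the 23 G2/M genes and 1 among the 11 S genes. Those called lower were Cenpe, Cenpf, Aurka, Kif20a, Cdc20, Kif23, Mki67, Tpx2, Mcm6, Bub1b and Cdc25c, at adjusted p under 0.05 for the mean of the responses with the empty and the Cre virus. Over all 18103 genes tested, 11.5% were called lower and 11.7% higher. The median log2 response of the G2/M members was -0.14, with 22 of 23 below 0, that of the S members was 0.012, and that of all genes was -0.0037. The decreases were small, between 0.14 and 0.49 on the log2 scale.

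Cenpe, the kinetochore motor that pulls chromosomes to the spindle equator, had the smallest p. Its level in medium was 32.3, 27.6 and 29.5 CPM with the empty virus and 28.6, 27.9 and 31.5 CPM with Cre. After isoproterenol it was 23.1, 22.1 and 22.9 CPM with the empty virus and 19.1, 21.5 and 21.3 CPM with Cre. All 6 libraries with agonist lay below all 6 in medium. The log2 difference was -0.45 ± 0.061 (SE of the fit, 12 libraries; edgeR quasi-likelihood test, adjusted p = 2.8e-07).

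Cenpf, a large kinetochore protein that accumulates in G2, was at 55.7, 57.9 and 54.7 CPM in medium with the empty virus and 61.6, 63.3 and 56.0 CPM with Cre. With isoproterenol it was at 48.8, 47.3 and 48 (empty virus) and 41.4, 49.5 and 46.8 (Cre) CPM. Here too every agonist library was below every medium library, with a log2 difference of -0.31 ± 0.049 (adjusted p = 5.82e-06). The third member of the centromere group, Cenpa, had a log2 difference of -0.11 ± 0.076 that was not called (adjusted p = 0.355).

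Aurka, the kinase of the spindle poles, was at 11.6, 10.4 and 11.5 CPM in medium and 9.03, 7.54 and 8.79 CPM with isoproterenol under the empty virus. With Cre the values were 15.9, 11.5 and 14.2 CPM in medium and 9.25, 7.70 and 10.7 CPM with agonist. Within each virus the groups did not overlap, while the lowest medium library (empty virus, replicate 2) was below 1 agonist library with Cre. Its log2 difference of -0.49 ± 0.096 (adjusted p = 0.000115) was the largest decrease among the 34. Among the other kinases and checkpoint genes, Bub1b was called lower (-0.21 ± 0.067, adjusted p = 0.0225). Bub1 at -0.14, Aurkb at -0.14 and Plk1 at -0.054 were not called.

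Kif20a and Kif23 encode kinesins of the central spindle, where the cell is cut at cytokinesis. Kif20a was at 12.6, 9.29 and 8.56 CPM in medium and 6.83, 6.68 and 7.76 CPM with isoproterenol under the empty virus, and at 9.56, 9.98 and 10.0 (medium) and 6.29, 7.83 and 8.48 (agonist) CPM with Cre. Kif23 was at 28.6, 23 and 24.7 (medium) and 21.9, 21.3 and 20.9 (agonist) CPM under the empty virus, and at 23.5, 26.8 and 25 (medium) and 21.0, 21.1 and 21.9 (agonist) CPM with Cre. For both genes the 6 agonist libraries lay below the 6 in medium. The log2 differences were -0.45 ± 0.10 for Kif20a (adjusted p = 0.00101) and -0.25 ± 0.064 for Kif23 (adjusted p = 0.00313). Counting Cenpe and Cenpf, 4 members had such a separation downwards, as did 6.23% of all genes tested.

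Tpx2, which targets Aurora A to spindle microtubules, was at 64.5, 60 and 61.6 CPM in medium and 60.3, 57.5 and 51.0 CPM with isoproterenol under the empty virus. With Cre it was at 67.8, 65.4 and 65.5 (medium) and 57.9, 59.0 and 61.5 (agonist) CPM. The groups overlapped in the empty virus libraries, and the log2 difference was -0.15 ± 0.046 (adjusted p = 0.0133). Kif11 at -0.11, Nusap1 at -0.043 and Birc5 at -0.0034 were not called.

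Cdc20, which activates the anaphase-promoting complex, was at 32.6, 26.2 and 29.2 CPM in medium and 22.7, 20.7 and 25.6 CPM with isoproterenol under the empty virus. With Cre the values were 36.4, 28.2 and 31.7 (medium) and 29.1, 26.2 and 24.7 (agonist) CPM. They overlapped between medium and agonist with Cre and not with the empty virus, and the log2 difference was -0.30 ± 0.070 (adjusted p = 0.00142). Ube2c, its partner in the same reaction, had a log2 difference of 0.022 ± 0.082 (95% interval -0.15 to 0.19) and was not called.

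Mki67, the proliferation marker Ki-67, was at 129, 122 and 116 CPM in medium and 109, 88.1 and 105 CPM with isoproterenol under the empty virus. With Cre it was at 118, 138 and 126 (medium) and 94.5, 106 and 121 (agonist) CPM. With Cre 1 agonist library at 121 CPM exceeded the lowest medium library. The log2 difference was -0.26 ± 0.063 (adjusted p = 0.00523), and that of Top2a, the other chromosome gene, was -0.095 ± 0.037 (adjusted p = 0.06).

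For the mitotic kinase and its cyclins the differences were smaller. Cdk1 at -0.065, Ccna2 at -0.085, Ccnb1 at -0.11 and Ccnb2 at -0.053 on the log2 scale were not called. Cdc25c, the phosphatase of that group, fell from 4.44 ± 0.929 and 4.73 ± 0.774 CPM in medium (empty and Cre virus, mean ± SD, n = 3) to 3.15 ± 0.488 and 3.78 ± 0.409 CPM. Its log2 difference was -0.42 ± 0.14 (adjusted p = 0.0291). Cdc25c is the least secure of the 11, since DESeq2 gave an adjusted p of 0.0543 and 5 of the 12 fits without 1 library lost the call. Those left out medium, empty virus, replicate 1 or 3, medium, Cre, replicate 3, agonist, empty virus, replicate 3, or agonist, Cre, replicate 1, with adjusted p from 0.0646 to 0.113.

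Among the S genes only Mcm6, a helicase subunit, was called. It went from 74.7 ± 3.65 and 78.9 ± 3.75 CPM in medium to 68.2 ± 0.663 and 71.1 ± 4.06 CPM with isoproterenol (empty and Cre virus), a log2 difference of -0.14 ± 0.043 (adjusted p = 0.0146). The other helicase subunits were at 0.012 (Mcm2), 0.035 (Mcm3), 0.0030 (Mcm4) and 0.074 (Mcm5). For the deoxynucleotide enzymes the values were -0.019 (Rrm2) and 0.057 (Tyms), and for the genes of S phase entry -0.070 (Ccne1), -0.0025 (Ccne2) and 0.062 (E2f1), none of them called. Pcna had the highest log2 value of the 34, 0.11 ± 0.046, and missed the threshold (adjusted p = 0.089). Leaving out single libraries ended the call of Mcm6 (adjusted p = 0.0624 without medium, empty virus, replicate 1, and 0.0528 without agonist, Cre, replicate 2). It also ended that of Bub1b (0.125 without medium, empty virus, replicate 1, and 0.0799 without agonist, empty virus, replicate 2) and of Tpx2 (0.0985 without agonist, empty virus, replicate 3). Pcna passed without medium, empty virus, replicate 3 (adjusted p = 0.0264), and Top2a without replicate 3 of either Cre group (0.0342 in medium, 0.0309 with agonist).

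**Figure D1:**
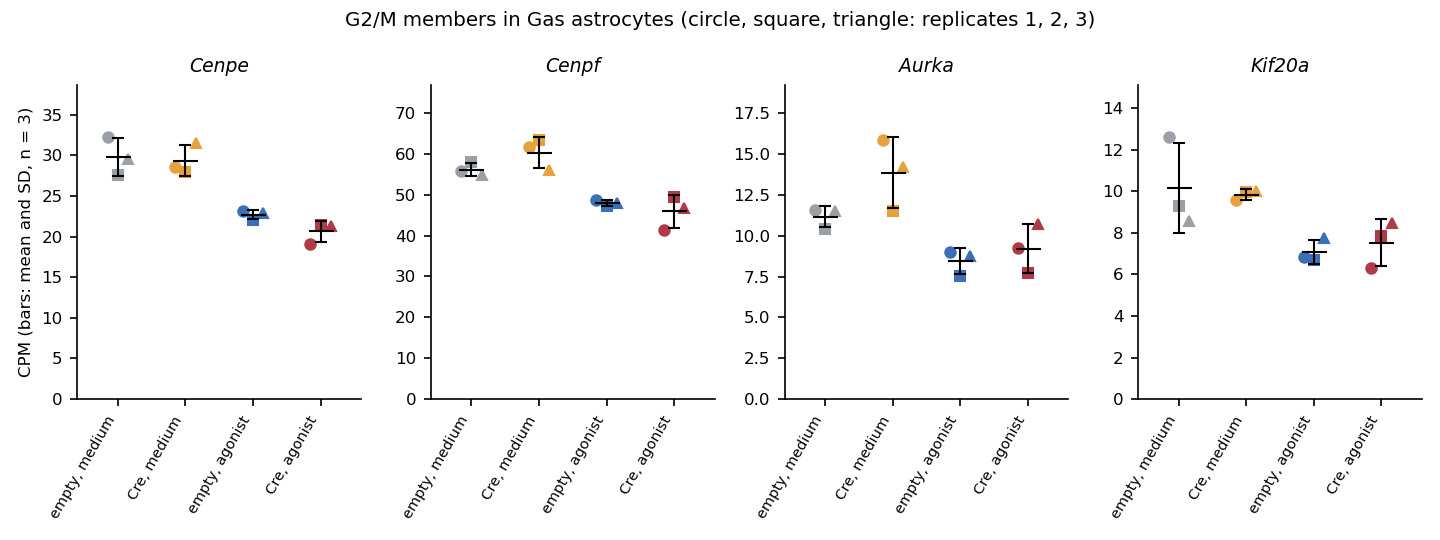
CPM of Cenpe, Cenpf, Aurka and Kif20a in each of the 12 astrocyte libraries, by group, with the group mean and SD as bars (n = 3). Cenpe lies at 19.1 to 23.1 CPM in the 6 libraries with isoproterenol and at 27.6 to 32.3 CPM in the 6 in medium.

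**Figure D2:**
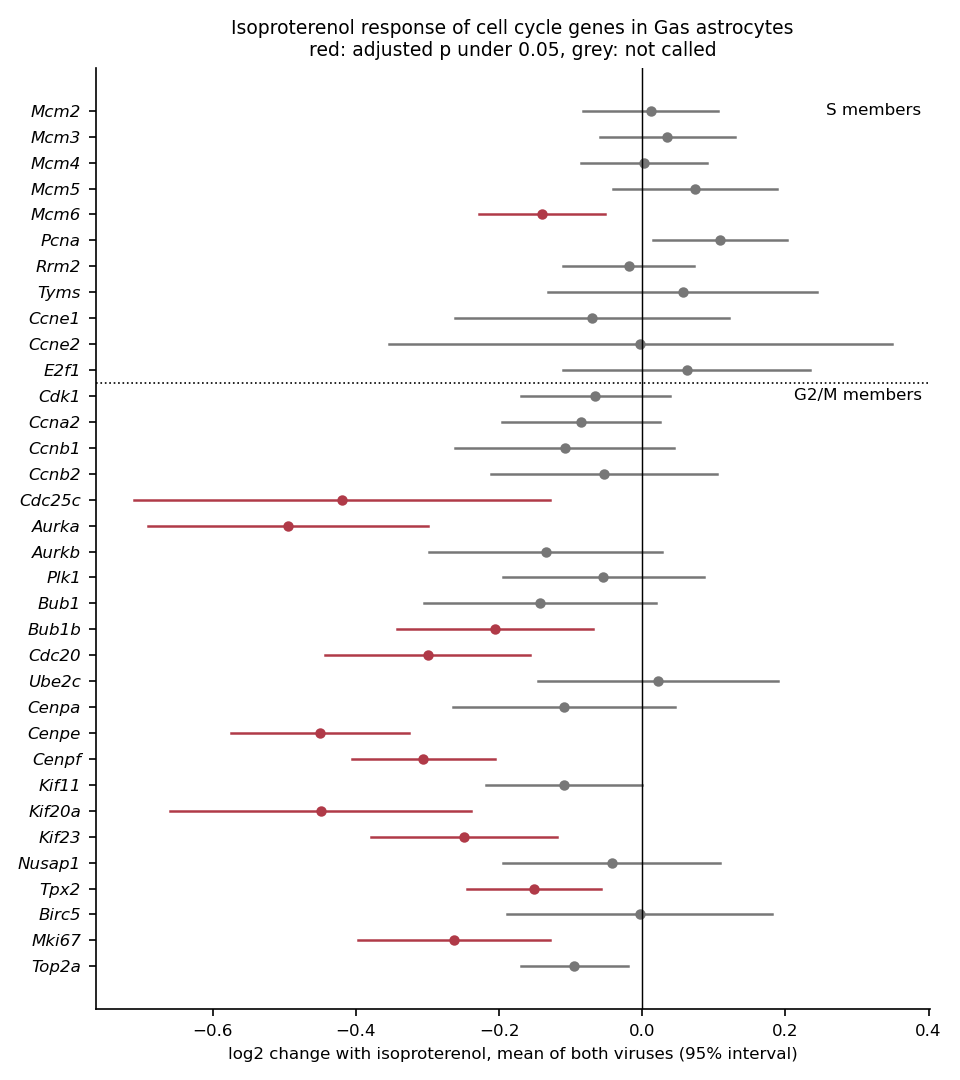
Log2 difference between isoproterenol and medium for each of the 34 members in the Gas line, mean of both viruses, with 95% intervals of the fit (12 libraries); red marks adjusted p under 0.05. The 11 red genes all lie below 0, and 10 of them are G2/M genes.

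The mean log2 CPM over the 23 G2/M members summarises each library. In medium it was 4.69, 4.53 and 4.60 with the empty virus and 4.69, 4.65 and 4.72 with Cre. With isoproterenol it was 4.46, 4.35 and 4.42 (empty virus) and 4.52, 4.50 and 4.53 (Cre), so that the highest agonist library and the lowest medium library were both at 4.53. The same mean over the 11 S members was 4.99, 4.96 and 5.00 (empty virus) and 4.99, 4.93 and 5.03 (Cre) in medium, and 5.01, 4.87 and 5.00 (empty virus) and 4.98, 5.00 and 5.08 (Cre) with agonist, with wide overlap. Split by virus, 6 members were lower under the empty virus (Cenpe, Kif20a, Cdc20, Cenpf, Aurka and Mki67; 6.73% of all genes were) and 3 under Cre (Cenpe, Cenpf and Aurka; 6.76% of all genes). These counts were unsteady, at 1 to 7 under the empty virus and 3 to 6 under Cre when single libraries were left out. The response did not pass the test for a difference between the viruses in any member or any other gene (0% of all genes). At an unadjusted p under 0.05 that difference was 0.26 ± 0.10 for Cdk1 (adjusted p = 1) and 0.34 ± 0.16 for Ube2c (adjusted p = 1) by edgeR.

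Of 65 further G2/M genes tested, 17 fell and 5 rose (median -0.13). Sgo2a, a shugoshin that guards centromeric cohesion, was called lower with a log2 difference of -0.82 ± 0.091, while Kif18a, a kinesin that steadies chromosomes at the equator, was called higher at 0.77 ± 0.079. Lmnb1 (lamin B1) was also called higher, at 0.34 ± 0.041. Of 46 further S phase genes, 6 rose and 5 fell, against 11.7% of all genes called higher and 11.5% called lower. Chek1, the replication checkpoint kinase, was at 0.61 ± 0.090 and Pold1, the catalytic subunit of DNA polymerase delta, at 0.35 ± 0.063. Msh6, a mismatch repair protein, was at -0.25 ± 0.045 and Slbp, which binds histone mRNA, at -0.31 ± 0.060.

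Several upstream regulators of the cycle had larger log2 differences than any of the 34 members. Of 26 genes for G1 cyclins, their kinases and the E2F-Rb system, 9 fell and 3 rose. Over all genes, 11.5% were called lower and 11.7% higher. Myc, a transcription factor that promotes growth, had a log2 difference of -1.16 ± 0.061 (adjusted p = 1.54e-17), and E2f3 one of -0.33 ± 0.054. Ccnd3 (cyclin D3) was at 0.78 ± 0.042 and Cdk6, a cyclin D kinase, at 0.32 ± 0.050. Of 22 Cdk inhibitors and antiproliferative genes, 10 rose and 2 fell, with a median of 0.20. Btg2 at 1.66 ± 0.049, Tob1 at 1.33 ± 0.039, Plk2 at 1.27 ± 0.039 and Gas1 at 0.66 ± 0.038 had the smallest p of these. Btg2 and Tob1 belong to a family of antiproliferative proteins that act on mRNA decay.

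Marker lists of other cell types were measured beside this response. Microglia and macrophage markers summed to 469 to 516 CPM in medium and 489.6 to 547 CPM with isoproterenol, and 4 of 18 were called higher and 1 lower. Astrocyte markers summed to 10614 to 11314 CPM and 11041 to 11944 CPM, with 4 of 13 called higher and 1 lower. Of 10 fibroblast markers 3 were called higher and 1 lower, and Tcf21 was at 0 counts. Over all genes, 11.7% were called higher and 11.5% lower. The part of these markers in the response of the members was not tested.

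No member passed the test for TRAP-6 in any of the 3 fibroblast lines, in the mean over both viruses, and leaving out the replicate 3 libraries of Ga13 and Gaq added none. Over all genes it called 179 of 15980 in the Gai line (0.732% higher, 0.388% lower), 871 of 15528 in Gaq (3.78% and 1.83%) and 1327 of 15835 in Ga13 (4.69% and 3.69%). At an unadjusted p under 0.05 there were 2 members in each line, against 9.66%, 15.9% and 19.3% of all genes in Gai, Gaq and Ga13. The median response of the G2/M members was -0.095, -0.056 and -0.080, and that of the S members 0.035, -0.014 and 0.0063, in the same order. The G2/M members lay at lower CPM in these cultures than in the astrocytes, whose table was scaled separately. The median SE of a G2/M member's response was 0.16 in Gai, 0.17 in Gaq and 0.23 in Ga13, against 0.070 in Gas.

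The members with the smallest p in the Gai line were Bub1b and Tyms. Bub1b was at 7.42, 6.26 and 7.12 CPM in medium and 4.59, 5.55 and 5.57 CPM with TRAP-6 under the empty virus, and at 6.24, 7.19 and 5.93 (medium) and 5.71, 6.77 and 4.48 (agonist) CPM with Cre. Tyms was at 9.61, 8.31 and 9.75 (medium) and 7.02, 7.47 and 8.38 (agonist) CPM under the empty virus, and at 9.06, 8.28 and 10.1 (medium) and 8.04, 8.26 and 8.2 (agonist) CPM with Cre. The Bub1b groups were apart with the empty virus and overlapped with Cre. Log2 differences were -0.30 ± 0.11 (adjusted p = 0.342) and -0.22 ± 0.087 (adjusted p = 0.373).

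In the Gaq line they were Cdc25c and Mcm4. Cdc25c was at 0.828, 1.19 and 0.891 CPM in medium and 0.868, 0.279 and 0.652 CPM with TRAP-6 under the empty virus, and at 1.37, 1.55 and 0.814 (medium) and 0.477, 0.587 and 0.775 (agonist) CPM with Cre. Its group with the empty virus and TRAP-6 held only 30 counts over 3 libraries. Mcm4 was at 25.2, 22.5 and 22.9 (medium) and 20.1, 19.7 and 19.3 (agonist) CPM under the empty virus, and at 19.6, 23.3 and 21.7 (medium) and 21.5, 20.2 and 18.3 (agonist) CPM with Cre. Cdc25c had separate groups with Cre and Mcm4 with the empty virus, lower with TRAP-6 in both cases. Log2 differences were -0.87 ± 0.31 (adjusted p = 0.106) and -0.18 ± 0.065 (adjusted p = 0.125). With Cre alone, Tyms was called lower after TRAP-6 (-0.54 ± 0.14, adjusted p = 0.027), as were 0.831% of all genes. This call was lost without Cre libraries of medium, replicate 2 or 3, or of TRAP-6, replicate 1 or 3 (adjusted p = 0.121, 0.108, 0.206 and 0.057).

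In the Ga13 line they were Ccnb2 and Mcm2. Ccnb2 was at 0.993, 1.67 and 2.13 CPM in medium and 1.38, 1.87 and 2.46 CPM with TRAP-6 under the empty virus, and at 0.956, 0.991 and 1.13 (medium) and 2.28, 1.67 and 1.37 (agonist) CPM with Cre. Mcm2 was at 17.4, 14.4 and 18.0 (medium) and 13.2, 13.4 and 16.5 (agonist) CPM under the empty virus, and at 15.9, 15.6 and 14.4 (medium) and 14.3, 14.1 and 13.6 (agonist) CPM with Cre. Both genes had separate groups with Cre alone, Ccnb2 higher and Mcm2 lower with TRAP-6. Log2 differences were 0.52 ± 0.23 (adjusted p = 0.19) and -0.17 ± 0.075 (adjusted p = 0.197). In a joint fit of the 36 fibroblast libraries, the TRAP-6 response differed between the 3 lines in none of the 34 and in 0.299% of 16749 genes. Bub1b was the only member with an unadjusted p under 0.05 (adjusted p = 0.64).

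Some upstream regulators and some further S phase and G2/M genes did respond to TRAP-6. Myc rose in all 3 lines, by 0.33 ± 0.054 in Gai (adjusted p = 0.00403), 0.50 ± 0.035 in Gaq (adjusted p = 1.47e-12) and 0.64 ± 0.029 in Ga13 (adjusted p = 5.29e-18), whereas isoproterenol lowered it in astrocytes. E2f3 fell in Gaq (-0.22 ± 0.057) and Ga13 (-0.29 ± 0.050), and Lmnb1 rose in both (0.24 ± 0.065 and 0.25 ± 0.054). Ccng2, an unconventional cyclin, rose in both as well (0.35 ± 0.071 and 0.28 ± 0.052). In Ga13, Gadd45a, a DNA damage-inducible gene, was at -0.40 ± 0.058, Btg1 at 0.30 ± 0.050 and Plk2 at 0.11 ± 0.025. Also called lower were Msh6 (-0.18 ± 0.057) and the microtubule protein Ckap5 (-0.12 ± 0.034) in Ga13. Plk3 was called lower in Gaq (-0.19 ± 0.044) and in Ga13 (-0.17 ± 0.042). Of 22 Cdk inhibitors and antiproliferative genes, 5 rose and 2 fell in Ga13, where 4.69% of all genes were called higher and 3.69% lower.

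**Figure D3:**
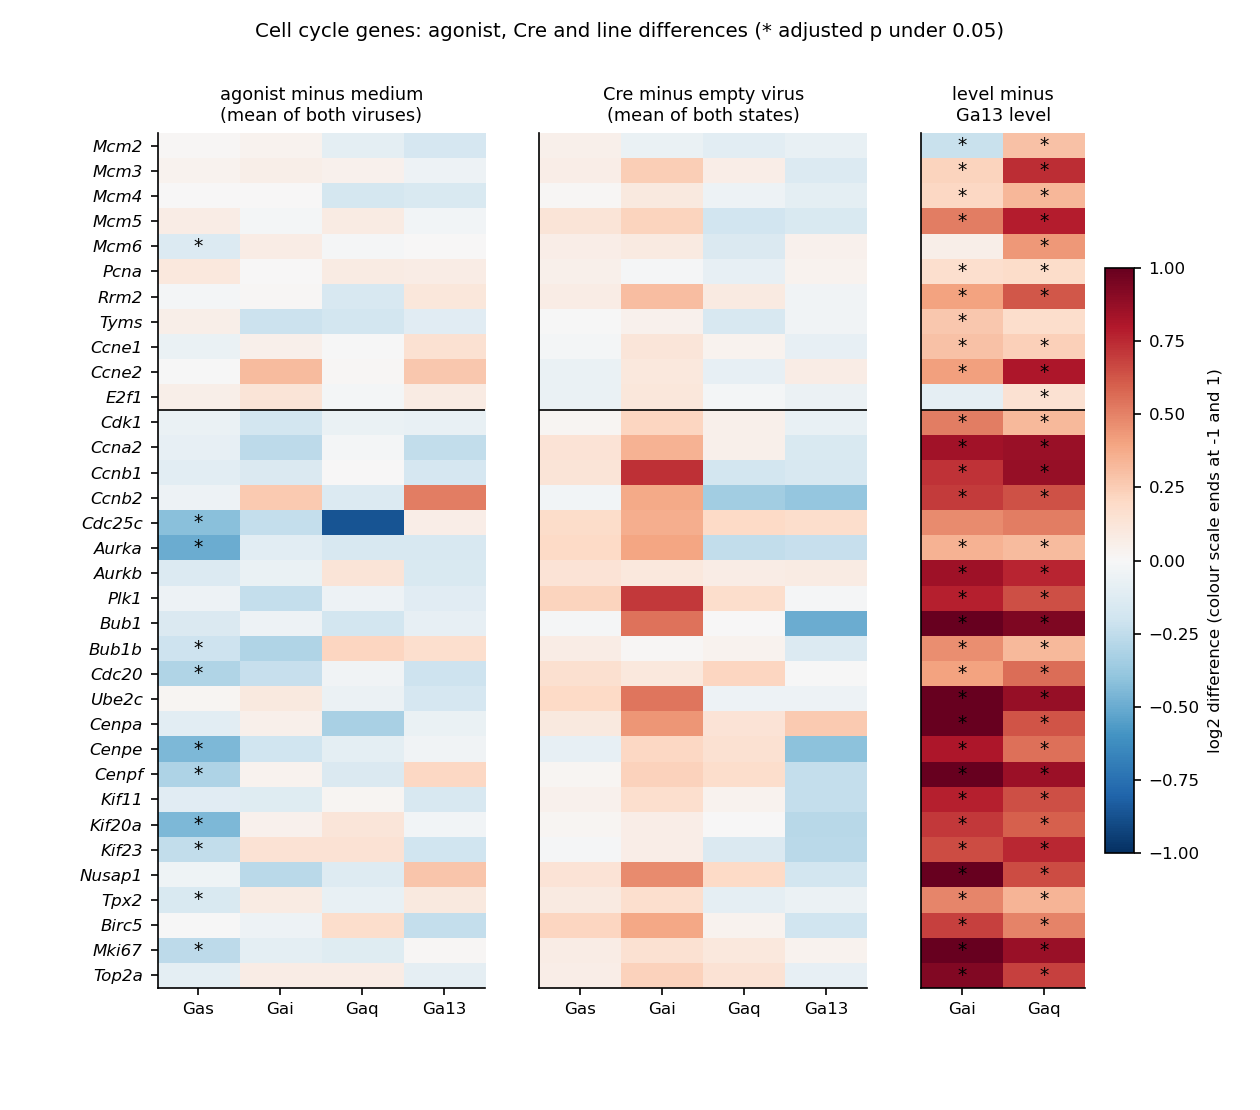
Log2 differences of the 34 members (rows) for the agonist response in the 4 lines, Cre against empty virus in the 4 lines, and the Gai and Gaq levels against Ga13; an asterisk marks adjusted p under 0.05 and colours end at -1 and 1. Asterisks mark 31 and 32 members in the line comparisons, 11 in the Gas agonist response and none in the columns of Cre against empty virus.

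In Gai fibroblasts the G2/M members had higher values with Cre, but no member passed the test. In the mean over medium and TRAP-6 all 23 G2/M members had a log2 difference above 0, with a median of 0.23 against 0.11 for the S members and -0.00065 for all genes. Without the 4 libraries of replicate 1 the G2/M median was 0.27, with 22 of 23 above 0, and again no member was called. At an unadjusted p under 0.05 there were 13 of 34 members, all higher with Cre, against 2.87% of all genes. After adjustment none of the 34 and 1 of 15980 genes (0.00626%) was called by edgeR. In medium alone 4 members were under the unadjusted 0.05 (2.55% of all genes) and with TRAP-6 alone 8 (2.18%), with no gene called in either (0%). The mean log2 CPM of the G2/M members was 1.84, 1.81 and 1.86 in medium and 1.69, 1.72 and 1.81 with TRAP-6 under the empty virus. With Cre it was 2.10, 2.02 and 2.19 (medium) and 2.01, 2.15 and 2.04 (agonist), above every empty virus library.

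Plk1, the polo-like kinase that acts from mitotic entry to cytokinesis, had the smallest p. Under the empty virus it was at 2.64, 3.07 and 2.80 CPM in medium and 1.82, 1.59 and 2.15 CPM with TRAP-6. With Cre it was at 2.97, 3.35 and 4.50 (medium) and 3.37, 4.63 and 3.77 (agonist) CPM. The groups with TRAP-6 did not overlap, while 1 of the 3 Cre libraries in medium lay within the range of the empty virus. The log2 difference between viruses was 1.08 ± 0.22 with TRAP-6 (adjusted p = 0.989) and 0.71 ± 0.15 in the mean (adjusted p = 0.26), both by edgeR. Without the filter on low counts the adjusted p was 0.0306 with TRAP-6 and 0.0361 in the mean. With the replicate number as a block in edgeR it was 0.0417 and 0.0274, in the same order. DESeq2 gave 0.068 in the mean, and leaving out single libraries gave 0.232 to 0.949.

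Rrm2, the regulated subunit of ribonucleotide reductase, was at 9.22, 8.63 and 8.76 CPM in medium and 9.41, 9.89 and 9.74 CPM with TRAP-6 under the empty virus, and at 12.3, 12.0 and 11.5 (medium) and 10.5, 11.9 and 10.7 (agonist) CPM with Cre. All 6 Cre libraries were above all 6 with the empty virus. This also held for Aurka and Ube2c, and upwards for 0.163% of all genes. The log2 difference of Rrm2 was 0.43 ± 0.10 in medium (adjusted p = 0.999) and 0.31 ± 0.072 in the mean (adjusted p = 0.454).

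Ccnb1, the cyclin of mitotic entry, was at 1.35, 2.16 and 2.16 CPM in medium and 1.37, 1.54 and 1.5 CPM with TRAP-6 under the empty virus, and at 2.10, 2.00 and 3.99 (medium) and 2.85, 3.09 and 2.59 (agonist) CPM with Cre. The groups were apart with TRAP-6 and overlapped in medium, where a single Cre library stood at 3.99 CPM. Its log2 difference was 0.96 ± 0.28 with TRAP-6 (adjusted p = 1). Ube2c was at 3.37, 3.29 and 1.81 (medium) and 2.47, 3.19 and 2.62 (agonist) CPM under the empty virus, and at 4.04, 3.52 and 3.59 (medium) and 4.21, 4.21 and 4.78 (agonist) CPM with Cre (mean difference 0.54 ± 0.15). Aurka was at 3.15, 3.18 and 3.33 (medium) and 2.62, 3.02 and 3.32 (agonist) CPM, and at 4.20, 4.06 and 4.39 (medium) and 4.28, 3.41 and 4.19 (agonist) CPM with Cre (mean difference 0.40 ± 0.12).

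Among the helicase genes Mcm3 had the smallest p in medium, where it was at 6.91, 7.17 and 8.17 CPM with the empty virus and 10.3, 9.36 and 9.35 CPM with Cre, without overlap. With TRAP-6 it was at 8.80, 7.96 and 8.66 (empty virus) and 10.2, 9 and 8.25 (Cre) CPM, with overlap. The log2 difference in medium was 0.39 ± 0.12 (adjusted p = 0.999). The other members under the unadjusted 0.05 in the mean were Top2a at 0.23, Nusap1 at 0.47, Bub1 at 0.54, Cenpa at 0.44, Birc5 at 0.39, Ccna2 at 0.35 and Cdk1 at 0.21. Macrophage markers summed to 1395 to 1568 CPM with the empty virus and 1275 to 1612 CPM with Cre. Fibroblast markers summed to 35148 to 49443 and 35350.2 to 48322 CPM, and their part in these values was not tested. For the difference of TRAP-6 responses between viruses no member was called, nor any other gene (0%). Plk1 was at 0.74 ± 0.30 (adjusted p = 1) and Tpx2, at 14.0, 19.1 and 16.6 (medium) and 14.8, 16.5 and 16.2 (agonist) CPM with the empty virus and 14.6, 17.5 and 18.2 (medium) and 18.4, 19.1 and 21.5 (agonist) CPM with Cre, at 0.31 ± 0.17 (adjusted p = 1).

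**Figure D4:**
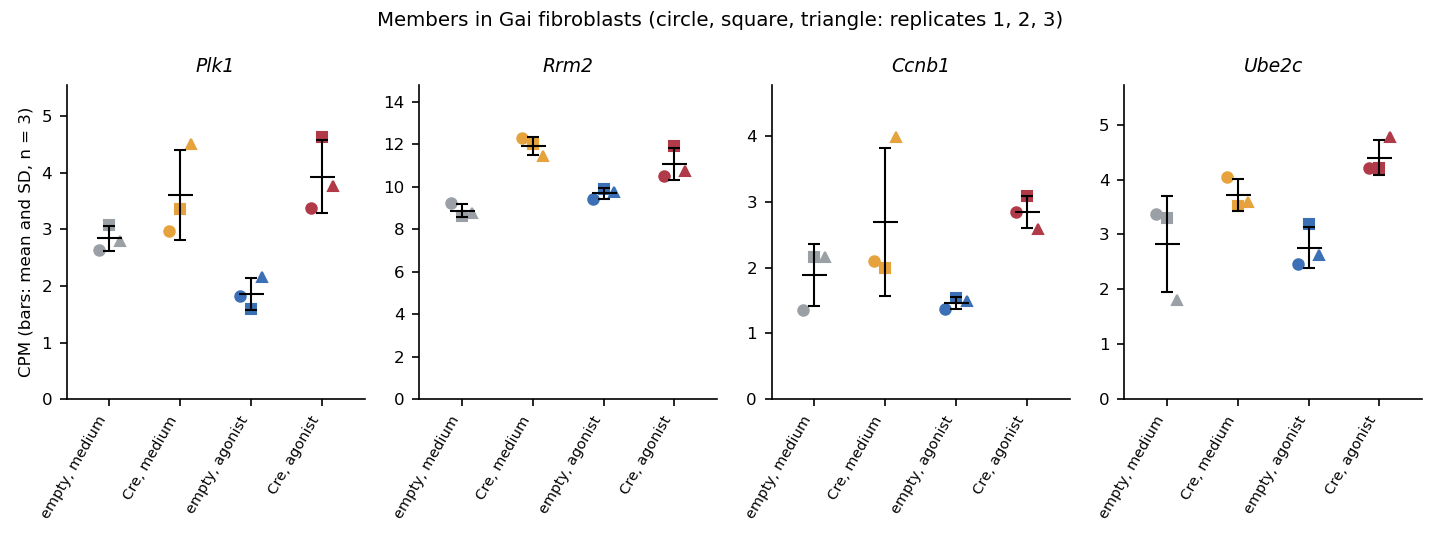
CPM of Plk1, Rrm2, Ccnb1 and Ube2c in each of the 12 Gai fibroblast libraries, by group, with the group mean and SD as bars (n = 3). For Plk1 the 3 libraries with Cre and TRAP-6 lie at 3.37 to 4.63 CPM and the 3 with the empty virus and TRAP-6 at 1.59 to 2.15 CPM.

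In the Gaq line 1 member passed the test for Cre. Tyms, thymidylate synthase, was at 10.2, 10.1 and 7.46 CPM with the empty virus and 5.69, 7.13 and 6.59 CPM with Cre after TRAP-6, without overlap. In medium it was at 8.23, 7.45 and 8.87 (empty virus) and 8.45, 10.0 and 9.87 (Cre) CPM, with overlap and a higher mean with Cre. The log2 difference with TRAP-6 was -0.52 ± 0.15 (adjusted p = 0.0467), in a comparison that called 1.42% of all genes lower. This call was lost in 9 of 12 fits that left out 1 library. Over the 12 fits the value ranged from -0.64 to -0.42 and the adjusted p from 0.0147 to 0.264. It held only without medium, empty virus, replicate 2 or 3, or TRAP-6, empty virus, replicate 3. The difference of responses between viruses was -0.71 ± 0.21 (adjusted p = 0.297) and was not called, where 0.161% of all genes were. A Tyms pseudogene in the tables had 10 to 10.9% as many counts as Tyms, and the split of reads between them is not known.

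Other members of the Gaq line gave no call for Cre. In medium, where 2.65% of all genes were called, Top2a was at 14.2, 15.3 and 18.1 CPM with the empty virus and 19.0, 20.5 and 16.6 CPM with Cre (0.23 ± 0.11, adjusted p = 0.374). E2f1 was at 26.9, 29.6 and 26.1 (empty virus) and 33.5, 30.7 and 28.0 (Cre) CPM in medium (0.16 ± 0.085, adjusted p = 0.443) and at 32.4, 29.7 and 30.5 (empty virus) and 27.3, 29.3 and 24.0 (Cre) CPM with TRAP-6. Both overlapped between the viruses in medium. Ccng1, a p53 target related to cyclins, was higher with Cre in medium (0.22 ± 0.045) and with TRAP-6 (0.17 ± 0.045), as was Gas1 (0.51 ± 0.12 and 0.99 ± 0.12). Cdca7 (1.29 ± 0.34) was higher and Plk3 (-0.26 ± 0.061) lower with Cre in medium, and Ckap2, a spindle protein, was higher with TRAP-6 (0.48 ± 0.11). After TRAP-6, 6 of 11 fibroblast markers were called higher with Cre, and their sum was 42865 to 44641 CPM with the empty virus and 48753 to 55262 CPM with Cre. That comparison called 529 of 15528 genes in either direction, and 1.42% of all genes lower. Mesothelial markers summed to 385 to 469.9 CPM with the empty virus and 524 to 565 CPM with Cre after TRAP-6. The part of either list in the Tyms value was not tested.

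In the Ga13 and Gas lines no member was called for Cre. In Ga13 1 gene in medium (0.00632%) and 6 with TRAP-6 (0.0379%) were called among all genes. Ccnb2 in medium was at 0.993 to 2.13 CPM with the empty virus and 0.956 to 1.13 CPM with Cre (-0.65 ± 0.33, adjusted p = 0.976, or -0.40 without both empty virus libraries of replicate 3). Ccne2 was at 0.473, 0.614 and 0.973 CPM in medium and 1.59, 1.05 and 1.33 CPM with TRAP-6 under the empty virus, and at 1.23, 1.2 and 1.04 (medium) and 0.723, 1.24 and 0.646 (agonist) CPM with Cre. Its difference between viruses was 0.76 ± 0.40 in medium (adjusted p = 0.976), with separate groups. With TRAP-6 Cenpe was at 2.17, 2.87 and 4.68 (empty virus) and 2.06, 2.60 and 1.94 (Cre) CPM (-0.57 ± 0.27, adjusted p = 0.609, or -0.19 without both of these libraries), and E2f1 at 27.4, 26.1 and 28.5 (empty virus) and 25.6, 23.9 and 24.3 (Cre) CPM (-0.15 ± 0.079, adjusted p = 0.653). For the difference of responses Ccne2 (-1.36 ± 0.55, adjusted p = 0.54) and Cdk1 (0.39 ± 0.24, adjusted p = 0.748) had the smallest p, and neither was among the 0.0821% of all genes called.

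In Gas astrocytes 1 gene in medium (0.00552%) and 3 with isoproterenol (0.0166%) were called for Cre. In the mean of both states 26 of 34 members had a log2 difference above 0. At an unadjusted p under 0.05 by edgeR there were 7 members, all higher with Cre as in Gai, against 6.89% of all genes. Aurkb, the kinase of the chromosomal passenger complex, was at 14.3, 13.0 and 14.5 CPM with the empty virus and 15.4, 15.6 and 19.6 CPM with Cre in medium (0.28 ± 0.11, adjusted p = 0.742). Mcm5 was at 42.4, 34.3 and 40.5 (empty virus) and 44.8, 42.4 and 46.5 (Cre) CPM there (0.19 ± 0.080, adjusted p = 0.77). With isoproterenol Plk1 was at 16.5, 15.6 and 17.1 (empty virus) and 23.2, 19.9 and 19.9 (Cre) CPM (0.35 ± 0.098, adjusted p = 0.997), and Ube2c at 20.2, 15.5 and 19.1 (empty virus) and 26.6, 19.7 and 25.4 (Cre) CPM (0.37 ± 0.12, adjusted p = 0.997). The 3 Plk1 libraries with Cre were above the 3 with the empty virus, and none of these differences was called. Whether the mean Cre effect differed between the 3 fibroblast lines was tested in the joint fit, and no member passed, while 0.675% of all genes did. Aurka came closest (adjusted p = 0.125), followed by Ccnb1 (adjusted p = 0.186), and 7 members were under an unadjusted 0.05 against 8.07% of all genes.

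Before the lines are compared, 4 libraries need to be named. With the empty virus, replicate 3 stood above replicates 1 and 2 in the Ga13 and Gaq lines, in medium and with TRAP-6. In Ga13 it was the highest of its group in 19 of 23 G2/M members in medium and in 20 of 23 with TRAP-6, and in Gaq in 15 and 17 of 23. The share over all genes was not counted. In Gas the empty virus library of replicate 1 was highest in 15 of 23 in medium and 13 of 23 with isoproterenol. The Ga13 mean log2 CPM of the G2/M members was 1.03, 1.00 and 1.65 in medium and 1.07, 0.93 and 1.55 with TRAP-6 under the empty virus, but 1.04, 1.14 and 1.19 (medium) and 1.07, 1.05 and 1.14 (agonist) with Cre. In Gaq it was 1.74, 1.78 and 2.08 (medium) and 1.68, 1.69 and 1.99 (agonist) with the empty virus, and 1.83, 1.95 and 1.90 (medium) and 1.83, 1.95 and 1.78 (agonist) with Cre. Mki67 in Ga13 was at 4.73, 4.98 and 10.5 CPM in medium and 5.19, 4.04 and 10.3 CPM with TRAP-6 under the empty virus. The Ga13 S members had a mean log2 CPM of 3.01, 3.03 and 3.26 in medium and 3.12, 3.08 and 3.31 with TRAP-6 under the empty virus, so the same libraries were highest there too.

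Macrophage markers were lower in those libraries, at 253.6 CPM in medium and 258.3 CPM with TRAP-6 in Ga13, against 312.8 to 337.7 CPM in replicates 1 and 2. They were as low in the Cre libraries of replicate 3 (258.7 and 253.8 CPM). Gaq had the same picture, with 492.7 and 464.7 CPM in replicate 3 with the empty virus and 478.2 and 472.6 CPM with Cre, against 602.1 to 669.3 CPM in replicates 1 and 2. The part of these markers in the G2/M levels was not tested. Without the empty virus libraries of replicate 3 no member of Ga13 was called for Cre. The median Cre difference of the Ga13 G2/M members, in the mean of both states, went from -0.15 (19 of 23 below 0) to 0.076 (7 of 23 below 0). That of the Ga13 S members went from -0.061 to 0.020. In Gaq Mki67 was then called higher with Cre, by 0.50 in log2 in medium (adjusted p = 0.0255) and 0.34 in the mean of both states (adjusted p = 0.0171). The libraries left out were picked for their high G2/M levels, so leaving them out raises Cre minus empty virus by construction. The changes in Ga13 and the Mki67 call therefore cannot show an effect of Cre. In the full set Mki67 in Gaq was at 10.4, 8.86 and 18.3 CPM with the empty virus and 12.5, 14.3 and 14.2 CPM with Cre in medium, with overlap, and the log2 difference was 0.094 ± 0.21 (adjusted p = 0.926).

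**Figure D5:**
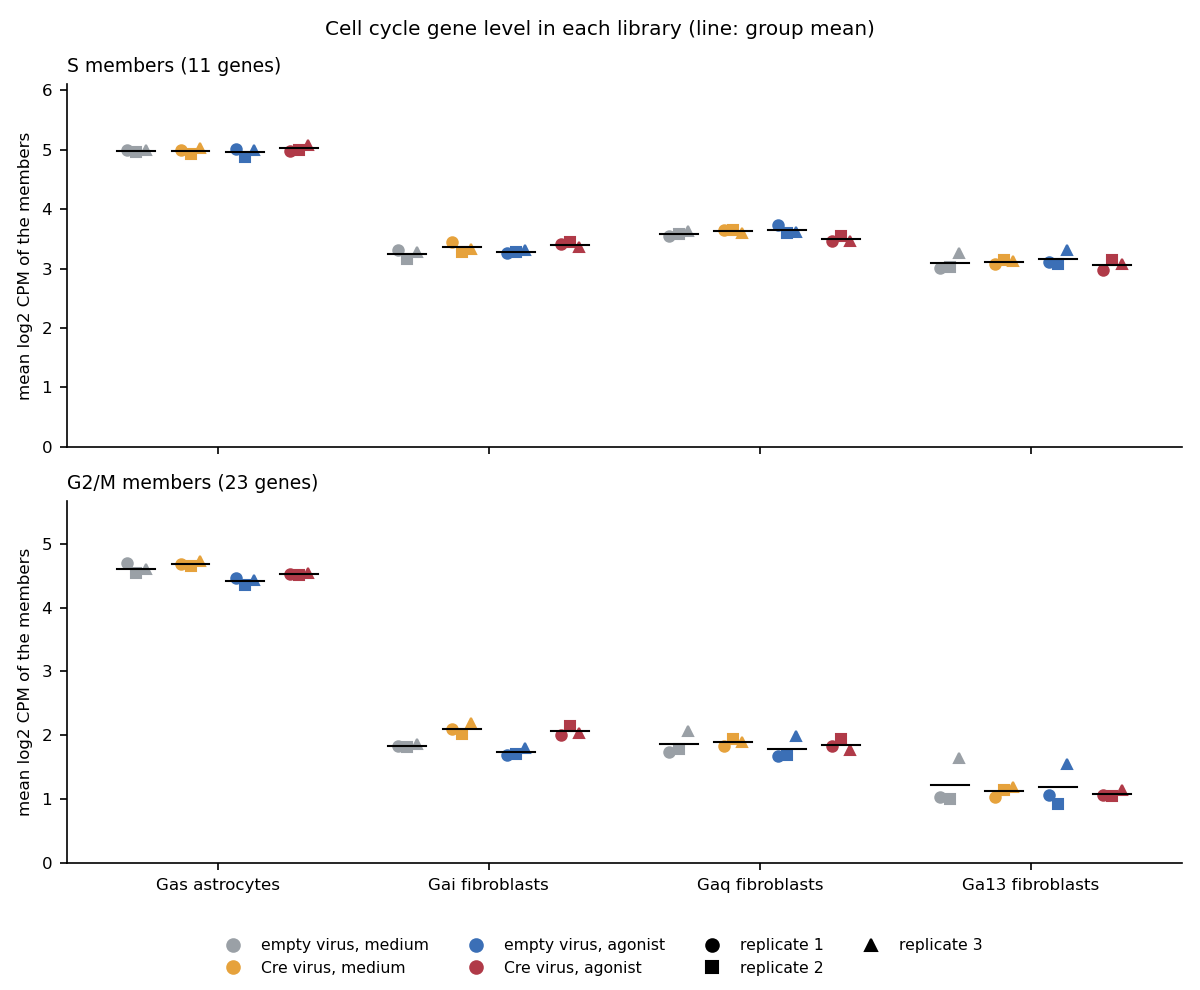
Mean log2 CPM of the 11 S and 23 G2/M members in each of the 48 libraries, by line and group; symbols give the replicate number and lines the group mean. In the Ga13 line the 2 empty virus libraries of replicate 3 stand at 1.65 and 1.55 for G2/M, above the other 10 libraries.

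The 3 fibroblast lines differed most in the level of these genes. In the joint fit, Gai was higher than Ga13 in 30 of 34 members and lower in 1 (Mcm2), where 26.8% of all genes were higher and 26.7% lower. Gaq was higher than Ga13 in 32 and lower in none, where 10.4% of all genes were higher and 9.49% lower. Not called were Mcm6, E2f1 and Cdc25c for Gai and Tyms and Cdc25c for Gaq. Without the 4 libraries of replicate 3 the counts were 30 higher and 1 lower for Gai, and 33 higher for Gaq. Without the 4 Gai libraries of replicate 1 they were 29 and 1 for Gai, with Ccne2 no longer called (adjusted p = 0.109). The median difference of the G2/M members was 0.78 for Gai against Ga13 and 0.65 for Gaq against Ga13. Line, mice, isolation of the cells and any batch of the libraries cannot be told apart in these comparisons.

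Bub1, the checkpoint kinase of kinetochores, differed most. Its lowest, median and highest level over 12 libraries was 0.5, 0.945 and 1.92 CPM in Ga13, 0.981, 2.36 and 3.5 CPM in Gai and 1.46, 2.04 and 2.32 CPM in Gaq. The ranges overlapped, and the log2 difference was 1.19 ± 0.16 for Gai against Ga13 (adjusted p = 3.4e-08) and 0.94 ± 0.16 for Gaq against Ga13 (adjusted p = 1.57e-05). Gai and Gaq did not differ beyond their spread in Bub1 (0.25 ± 0.15, adjusted p = 0.158).

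Cenpa, the centromeric histone, was at 0.355, 1.58 and 2.52 CPM in Ga13, 1.89, 3.95 and 5.50 CPM in Gai and 1.84, 2.50 and 3.78 CPM in Gaq (lowest, median, highest). It was 1.15 ± 0.17 in log2 higher in Gai than in Ga13 and 0.51 ± 0.17 higher in Gai than in Gaq (adjusted p = 0.00978), the latter not called without the Gai libraries of replicate 1 (0.31, adjusted p = 0.152). Cenpf was at 0.519, 1.12 and 2.24 CPM, 1.60, 2.41 and 3.33 CPM and 1.46, 2.11 and 2.63 CPM in Ga13, Gai and Gaq. Nusap1 was at 0.478, 1.04 and 1.55 CPM, 1.33, 1.97 and 3.04 CPM and 0.917, 1.60 and 2.29 CPM. The differences of Gai from Ga13 were 1.07 ± 0.17 for Cenpf and 1.05 ± 0.16 for Nusap1.

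After Bub1, the genes Ccnb1, Ube2c and Ccna2 completed the 4 called members with the largest difference of Gaq from Ga13. Ccnb1 had a lowest, median and highest level of 0.885, 1.22 and 1.92 CPM in Ga13 and 1.69, 2.39 and 3.41 CPM in Gaq (0.87 ± 0.14). Ube2c had 0.887, 1.71 and 2.24 CPM in Ga13 and 1.76, 2.79 and 4.51 CPM in Gaq (0.87 ± 0.14), and Ccna2 1.33, 2.15 and 4.54 CPM in Ga13 and 2.79, 4.03 and 4.92 CPM in Gaq (0.87 ± 0.14). Cyclin A2 and cyclin B1 bind Cdk1 in G2 and mitosis. A Ccnb1 pseudogene had 52.4 to 68.5% as many counts as Ccnb1, and the split of reads between them is not known.

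Gai and Gaq differed in 13 members, at shares not above those over all genes. Of these, 5 were higher in Gai (29.4% of all genes were), all of them G2/M genes: Cenpa, Nusap1 at 0.40, Top2a at 0.24, Cdk1 at 0.18 and Tpx2 at 0.15. The 8 lower in Gai (28.4% of all genes) were all S genes: Mcm2 at -0.52 ± 0.058, Mcm3 at -0.52 ± 0.063, Ccne2 at -0.40 ± 0.16, Mcm6 at -0.37, Mcm5 at -0.28, E2f1 at -0.24, Rrm2 at -0.22 and Mcm4 at -0.13. Mcm2 was at 9.40, 13.4 and 14.9 CPM in Gai (lowest, median, highest), 15.2, 19.5 and 20.4 CPM in Gaq and 13.3, 14.6 and 18.2 CPM in Ga13, and every Gaq library was above every Gai library. Mcm3 was at 7.02, 8.86 and 10.5 CPM, 10.7, 12.5 and 15.6 CPM and 6.46, 7.49 and 9 CPM in that order, again with Gaq above all Gai libraries. Without the Gai libraries of replicate 1, Cenpa and Nusap1 (0.32, adjusted p = 0.126) were not called, and Cenpe was (0.39, adjusted p = 0.00628). The call of Ccne2 was lost in 5 of 36 fits that left out 1 library. Without the 4 empty virus libraries of replicate 3, Ube2c (0.34, adjusted p = 0.0356), Cenpe (0.31, adjusted p = 0.0199) and Mki67 (0.24, adjusted p = 0.00075) were also called higher in Gai than in Gaq. Those libraries were picked for their high G2/M levels, so leaving them out lowers the Gaq level by construction.

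As a summary over members, the mean log2 CPM of the G2/M genes in the joint table was 0.962, 1.10 and 1.68 (lowest, median, highest) in Ga13, 1.64, 1.80 and 2.04 in Gaq and 1.70, 1.94 and 2.20 in Gai. That of the S genes was 2.99, 3.12 and 3.33 in Ga13, 3.17, 3.33 and 3.46 in Gai and 3.44, 3.57 and 3.69 in Gaq. In astrocytes, fitted and scaled separately, the group means were 4.41 to 4.69 for G2/M and 4.96 to 5.02 for S, and no test was made against the fibroblasts. Macrophage markers followed the order Gai, Gaq, Ga13 (1270 to 1610, 465 to 669 and 254 to 348 CPM), and so did the 8 endothelial markers (21.6 to 29.1, 12.0 to 16.4 and 7.14 to 9.81 CPM). Fibroblast markers ran the other way with overlap, at 35148 to 49443, 42236 to 55262 and 52673 to 55789 CPM. Smooth muscle and pericyte markers were lowest in Gaq, at 3188 to 4121, 1848 to 2389 and 2723 to 3540 CPM. The part of these lists in the line differences was not tested.

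Of the 34 members, 9 overlap an exon of another gene in the GENCODE annotation used here, and the strand setting of the counting is not given in the sources used here. Their counts, and those of members with pseudogene copies, are uncertain to that extent. The 9 are Ccna2 (with Exosc9), Ccne2 (Ints8), Cdc20 (Elovl1), Cdc25c (Gm3550), Kif20a (Cdc23), Nusap1 (Oip5), Plk1 (Gm44985), Top2a (Gm23451) and Ube2c (Tnnc2). Rows of Pcna pseudogenes had 75.8 to 80% as many counts as Pcna.

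The promoter elements were also counted by the isoproterenol call, over the 18 G2/M members with a window. TTTGAA was in 6 of 7 members called lower and 7 of 11 not called, and CCAAT in 7 of 7 and 9 of 11. The E2F-type words were in 0 of 7 and 1 of 11. Of the windows printed above, Cenpe has CCAAT and no TTTGAA, while Cenpf, Aurka, Cdc20 and Kif23 have both. No test was made of these counts.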

How the data were processed

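RNA abundance was analysed as raw read counts per gene, deposited by the authors in 1 table per line. The submitters' processing notes name fastp, Subread, featureCounts and the build GRCm39. Versions, annotation and strand setting are not given in the sources used here. The tables hold 0 counts for all mitochondrial genes.

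The tools were edgeR 4.0.16 and limma 3.58.1 under R 4.3.3. Each line was fitted alone with 1 mean per group of 3 libraries, after filterByExpr by group and TMM scaling, without the biosensor row. The test was edgeR's quasi-likelihood F test (robust, two-sided). A gene was called where the p adjusted by Benjamini-Hochberg over all genes tested was under 0.05 (18103 in Gas, 15980 in Gai, 15528 in Gaq, 15835 in Ga13). Differences are given in log2 and their standard error (SE) comes from the fit. CPM are counts per 1000000 counts of the TMM-scaled library, and library means use log2 CPM with a prior count of 2. The 36 fibroblast libraries were also fitted jointly (16749 genes). Contrasts were the agonist response (mean of both viruses and under each), Cre against empty virus (medium, agonist and the mean) and the difference of responses. The Cre mean over both states, and the test of its difference between lines, were added after the data were seen.

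The members, contrasts and gene lists were chosen with earlier results of these data known. By the rule for naming genes, every member is named with its call. Values of each library are given for the called members, at most 8 with the smallest p, or for the 2 with the smallest p where none was called. From each further list up to 4 called genes with the smallest p were named. A gene that this rule names is not reported here. In the line comparison the 4 called members with the largest difference were given in full. Aurka and Ube2c in Gai, and Mki67 in Ga13 and Gaq, were chosen after their values were seen.

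Precision was checked on simulated data, with 100 genes changed by 0.5 log2 and another 100 by 1 log2 among as many genes as were tested. Of those changed by 0.5 log2, 68%, 66%, 64% and 74% were recovered in the mean agonist response of Gas, Gai, Gaq and Ga13. Of those changed by 1 log2, 88%, 82%, 87% and 88% were recovered. Among the unchanged genes 9, 6, 11 and 16 were called, in the same order of lines. No share was computed for the members. In Ga13 the interval of that response reached under 0.5 to either side in 14 of 23 G2/M members. In Gai and Gaq it did so in 22, and in Gas in all 23. The shares therefore do not give the chance of finding a change of 0.5 log2 in a G2/M member. Alternatives were DESeq2 1.42.0, no filter on low counts, the replicate number as a block, and leaving out each library in turn. Fits without the 4 empty virus libraries of replicate 3 in Ga13 and Gaq, or the 4 Gai libraries of replicate 1, and all alternatives for the response under each virus alone, were added after the data were seen. Same-numbered libraries of a line did not all deviate together, so the numbers were not taken to pair them. Yet 11, 5, 9 and 11 of 12 libraries in Gas, Gai, Gaq and Ga13 correlated best with their own number, so pairing remains possible. RefSeq promoter windows (GRCm38.p6) were searched by exact match.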

Additional observations from a re-analysis of the deposited data

How the results depend on the processing

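The count of members called moved by over 1.5 times in these cases among the alternatives run. In Gai, 1 member (Plk1) was called for Cre with TRAP-6, and 1 in the mean of both states, without the filter on low counts and with the replicate block (Plk1 adjusted p = 0.0417 and 0.0274), against 0. In Gaq, 1 member (Mki67) was called for Cre in medium, and 1 in the mean, without both empty virus libraries of replicate 3, against 0. Those libraries were picked for their high G2/M levels, so this call cannot show an effect of Cre. With the replicate block 1 member (Ccnb1, adjusted p = 0.0398) differed between the fibroblast lines in the mean Cre effect, against 0. Leaving out single libraries gave 0 to 1 members for Gaq Cre in medium and in the mean (1 without medium, empty virus, replicate 3) and 0 to 1 with TRAP-6. For the response under each virus alone it gave 1 to 7 members in Gas with the empty virus (1 without medium replicate 1, 2 without agonist replicate 1 or 2, 3 without replicate 3 of either), 3 to 6 with Cre (6 without agonist replicate 3) and 0 to 1 in Gaq with Cre. Without the filter the Gas count with Cre was 5, against 3. No member named for a contrast reversed its direction there. Some medians over members did change sign, among them the Ga13 medians for Cre without both empty virus libraries of replicate 3.

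Same-numbered libraries correlated at -0.018 to 0.101 in Gas, 0.031 to 0.368 in Gai, -0.015 to 0.089 in Gaq and -0.0067 to 0.091 in Ga13, and 11, 5, 9 and 11 of 12 libraries correlated best with their own number, a hint from the data and not the design. The block left 11 members called in the Gas response and 31, 32 and 14 in the line comparisons (Gai against Ga13, Gaq against Ga13, Gai against Gaq). Of all genes, the number called was over 1.5 times larger with DESeq2, without the filter and with the block, given in this order, for Cre in the mean in Gas (10 to 17, 41 and 18). In Gai it went from 179 to 287, 445 and 797 for TRAP-6, and for Cre from 0 to 1, 6 and 11 in medium, 0 to 1, 9 and 9 with TRAP-6 and 1 to 14, 23 and 29 in the mean. In Gaq it went from 25 to 40, 67 and 91 for the difference of responses. In Ga13 it went for Cre from 1 to 7, 33 and 33 in medium, 6 to 30, 62 and 112 with TRAP-6 and 9 to 15, 28 and 41 in the mean, and for the difference of responses from 13 to 60, 86 and 138. The block alone moved Gaq Cre from 411 to 752 in medium and 529 to 944 with TRAP-6. Without the filter Gas Cre in medium went from 1 to 12 and the Gai difference of responses from 0 to 2. Between the fibroblast lines the TRAP-6 response went from 50 to 120 (no filter) and 268 (block), and the Cre effect from 113 to 245 and 620. Without the libraries of replicate 3 named above, Ga13 Cre gave 0 in medium and 15 with TRAP-6, and the differences of responses 4 in Ga13 and 16 in Gaq. Without the Gai libraries of replicate 1, the Gai counts were 703 for TRAP-6 and 14, 7 and 24 for Cre in medium, with TRAP-6 and in the mean, and those between the lines 222 for the TRAP-6 response and 324 for the Cre effect. With DESeq2, no filter, the block and without those libraries, the Gai response went from 19 to 81, 133, 254 and 222 under the empty virus and from 38 to 106, 202, 355 and 289 under Cre. The block moved the Gaq response under the empty virus from 411 to 763 and the Ga13 response under Cre from 851 to 1357, and without replicate 3 the Ga13 response under the empty virus went from 617 to 393. The median SE of a G2/M member's mean agonist response was largest in Ga13 (0.23). There the G2/M members had their lowest levels, and the empty virus libraries of replicate 3 stood apart. The part of either in the SE was not tested.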

Other observations

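Further cell cycle genes were counted between the fibroblast lines in the same joint fit, to be read beside the shares over all genes. Of all genes, 26.8% were higher and 26.7% lower in Gai than in Ga13. For Gaq against Ga13 the shares were 10.4% higher and 9.49% lower, and for Gai against Gaq 29.4% higher and 28.4% lower. Of 64 other G2/M genes tested, 51 were higher and 1 lower in Gai than in Ga13, 42 were higher and none lower in Gaq than in Ga13, and 10 were higher and 2 lower in Gai than in Gaq. Of 45 other S phase genes, 20 were higher and 4 lower in Gai than in Ga13, and 26 higher and none lower in Gaq than in Ga13. Between Gai and Gaq 2 of these were higher and 19 lower in Gai. Of 26 G1 cyclin, Cdk and E2F-Rb genes, 4 were higher and 14 lower in Gai than in Gaq. Of 22 Cdk inhibitors and antiproliferative genes, 10 were higher and 5 lower in Gai than in Ga13, and 5 higher and 6 lower in Gaq than in Ga13.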
